A study of Caenorhabditis elegans with 43 samples.

Results

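The 12 wild-type (WT) libraries of a 43-library RNA-seq series were placed in the order of their yolk transcripts, and the other genes were then described by whether they followed or opposed that order. The order was set within each of the 3 sequencing batches by a yolk index, the log2 of the summed normalized values of *vit-1* to *vit-6*, so the places in the order were chosen by these measured yolk values, which are given below without a test. RNA came from whole worms of the N2 Bristol strain, grown on OP50 bacteria at 20 °C and collected from synchronized plates of about 1000 worms as young adults that had not yet laid eggs. Batch 1 held the libraries labelled WT1, WT2 and WT3, batch 2 held WT_4 to WT_9, and batch 3 held WTb, WTbl and WTr. The labels give them no mutation and no treatment. The other 31 libraries, used only for comparison, were 3 labelled by the code NA238, 3 labelled atfs1, 3 labelled atfs1DEL, 6 *nuo-6*, 6 *atfs-1(et17)*, 2 of the double mutant *nuo-6;hif-1*, 5 *atfs-1(et15)* and 3 *hif-1*. The *nuo-6* gene encodes a subunit of mitochondrial complex I, *atfs-1* a transcription factor of the mitochondrial unfolded protein response and *hif-1* a hypoxia-inducible transcription factor. The study's methods name the alleles *nuo-6(qm200)*, *hif-1(ia4)* and, for loss of *atfs-1*, gk3094, and describe et15 and et17 as gain-of-function alleles. RNA was isolated from each sample on its own, and the p-values below measure the spread between these samples.

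Vitellogenins are the yolk proteins of the worm. They are made in the intestine of the adult hermaphrodite, secreted into the body cavity and taken up by growing oocytes through the receptor RME-2. Adulthood begins with the last of the larval molts, in which the epidermis lays down a new cuticle of collagens and other matrix proteins under the old one and then sheds the old one. Genes for the molt are expressed in waves that accompany each molt, and the gonad switches from making sperm to making oocytes around the same time.

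Between 23150371 and 44827316 reads were counted on genes in the WT libraries, and between 21466920 and 48493377 in the other libraries. Batch 2 was the least deep of the wild-type batches, at 23150371 to 25406039 reads. In batches 1 and 3 the number of reads increased in the same order as the yolk sum, and in batch 2 it did not. The adult cuticle collagen *col-19* was found in every WT library, at 880 to 2174 normalized CPM. Body wall muscle genes summed to 7723 to 10396 normalized CPM in batch 3 and to 17473 to 27905 in batches 1 and 2, and the slopes below were fitted within batches. In RNA from whole worms, fewer cells of a type and less RNA per cell cannot be told apart.

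In batch 1 the 6 yolk genes summed to 27022 normalized CPM in WT2, 57467 in WT1 and 76683 in WT3. In batch 2 the sums were 22819 in WT_7, 24132 in WT_6, 29147 in WT_8, 33077 in WT_9, 34855 in WT_4 and 43662 in WT_5. In batch 3 they were 22613 in WTr, 41970 in WTbl and 43578 in WTb. The highest library was thus 2.84 times the lowest in batch 1, 1.91 times in batch 2 and 1.93 times in batch 3, and WT3 stood above all other WT libraries. The yolk genes took between 2.17% of the reads, in WT_7, and 6.89%, in WT3. WTbl and WTb differed by only 0.05 on the log2 scale of the index, so their order rests on a small difference.

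All 6 yolk genes were abundant. The most abundant was *vit-6*, with 11615, 22581 and 27051 normalized CPM in WT2, WT1 and WT3, 9660 to 18027 in batch 2, and 8549, 15626 and 16180 in WTr, WTbl and WTb. The least abundant was *vit-4*, with 766, 2062 and 3294 normalized CPM in the same libraries of batch 1, 824 to 1445 in batch 2, and 863, 1620 and 1706 in batch 3. Each of the 6 genes put the libraries of batches 1 and 3 in the same order. In batch 2, *vit-2* and *vit-6* gave the order of the sum, *vit-3*, *vit-4* and *vit-5* exchanged a pair of neighbouring libraries each, and *vit-1* moved 3 libraries. The slope of each gene on the index, the log2 change for each log2 unit of the yolk sum, was 0.90 for *vit-6*, 0.93 for *vit-2*, 1.15 for *vit-5*, 1.16 for *vit-4*, 1.19 for *vit-3* and 1.26 for *vit-1*. The mean of the 6 log2 values and the sum without normalization beyond library size gave the same order in all 12 libraries.

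**Figure D1:**
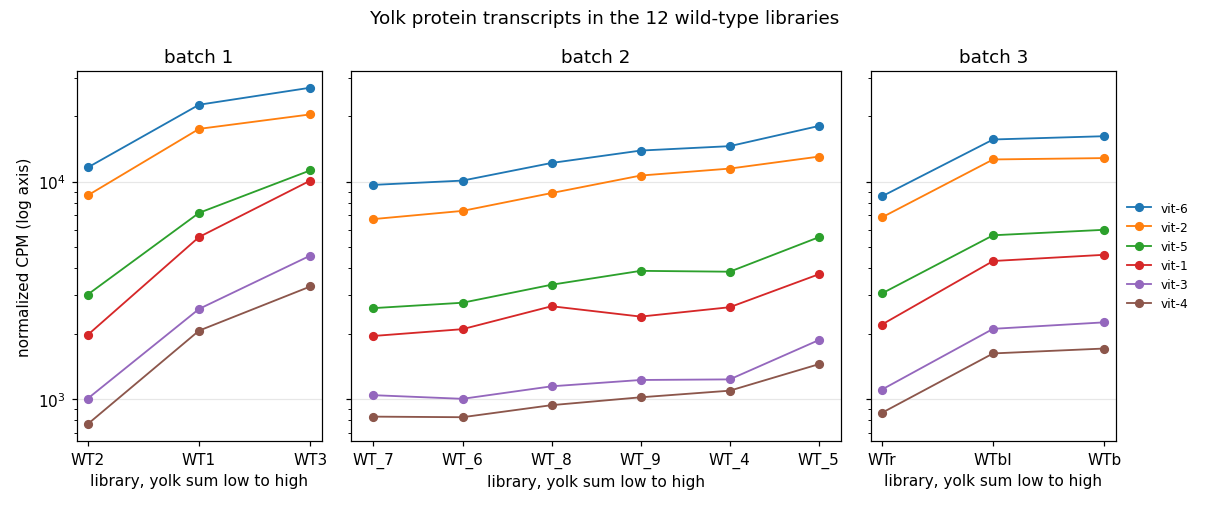
Normalized CPM (log axis) of the 6 yolk genes in the 12 wild-type libraries, 1 panel per batch, with libraries from low to high yolk sum and 1 line per gene. The yolk sum spans 22819 to 43662 in batch 2 and 27022 to 76683 in batch 1, and *vit-6* and *vit-2* lie above the other 4 genes in every library.

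To ask which genes go along with this order, the slope of log2(normalized CPM + 0.5) on the yolk index was fitted with limma for the 13831 genes of the authors' filtered table other than the yolk genes, with batch as an additive term. Of these genes, 3218 (23.3%) had a slope that differed from 0 at a Benjamini-Hochberg adjusted p under 0.05. A positive slope, called following here, was found for 1970 genes (14.2%), and a negative slope, called opposing, for 1248 genes (9.02%). The median slope over all genes tested was -0.02. The share of followers depended on the scaling, at 61.2% of the called genes with the authors' normalization and 32.9% when scaled by library size alone, while all 1970 and all 1248 genes kept the sign of their slope with that scaling.

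The number of called genes rested on the library with the lowest yolk sum of batch 1. Without WT2, limma called 1 gene (0.00723%), C39D10.7, at an adjusted p of 0.0468, although 3826 genes had an unadjusted p under 0.05. With WT3 left out 1695 genes were called, and with WTbl left out 1977. In the 6 libraries of batch 2 alone, limma called 0 genes (0.0%), with 3599 at an unadjusted p under 0.05 and a smallest adjusted p of 0.086. On whole reads recovered from the CPM, edgeR likewise called 0 genes without WT2 (3829 at an unadjusted p under 0.05) and 0 in batch 2 alone (3695), and DESeq2 called 1927 and 1386 genes. Without WT2, all 3218 genes kept their sign, and in batch 2 alone 1968 of the 1970 followers and 1244 of the 1248 opposers did, but these genes were called in a fit that holds the same libraries. Of all genes tested, 88.3% kept their sign without WT2 and 80.4% in batch 2 alone.

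**Figure D2:**
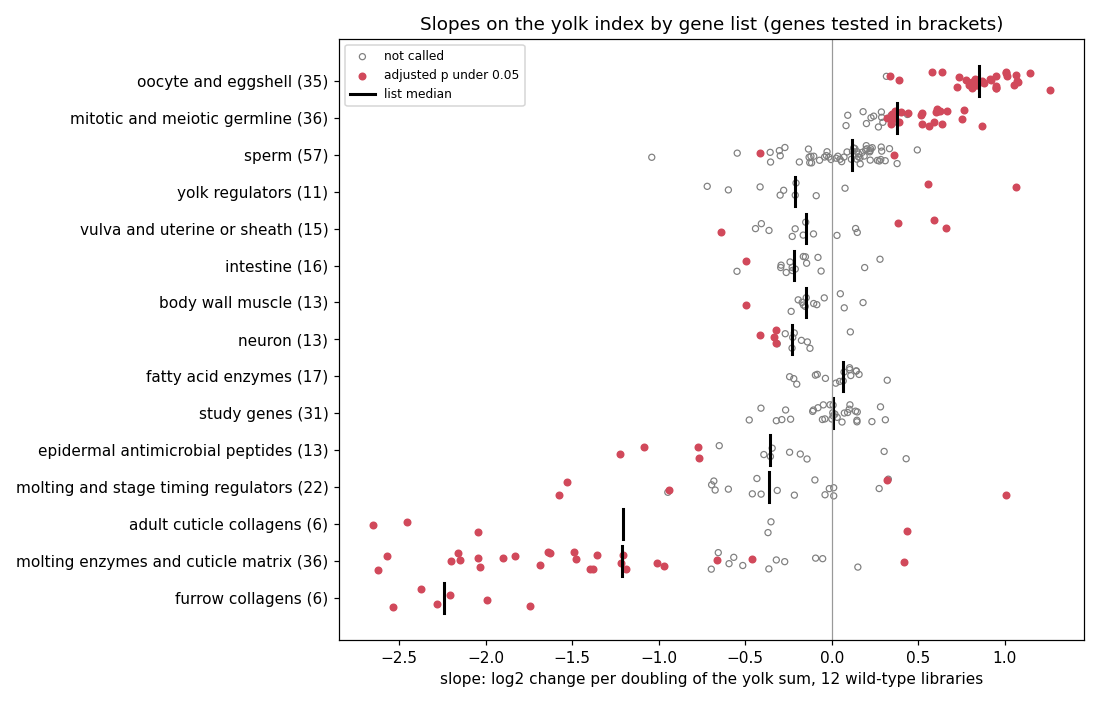
Slope on the yolk index (log2 change for each log2 unit of the yolk sum, 12 wild-type libraries) of each tested gene in 15 gene lists, with the number of genes tested in brackets. Filled points had an adjusted p under 0.05, open points did not, and black bars are list medians, from 0.85 for oocyte and eggshell genes to -2.24 for furrow collagens.

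Nearly all listed genes of growing oocytes and of the eggshell followed the yolk order. Of 35 tested genes of this list, 34 followed and 0 opposed, with a median slope of 0.85, where the median over all genes was -0.02 and 14.2% of all genes followed. The remaining gene, *pqn-59*, had a slope of 0.32 and was not called. The median was 0.69 in batch 1, 1.61 in batch 2 and 0.57 in batch 3, and 1.02 without WT2. DESeq2 called 32 of the 35 genes as followers without WT2 and 32 in batch 2 alone, whereas limma called 0 in both.

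The yolk receptor *rme-2* had 348, 624 and 738 normalized CPM in WT2, WT1 and WT3. In batch 2 it had 168, 234, 410, 520, 629 and 539 in WT_7, WT_6, WT_8, WT_9, WT_4 and WT_5, and in batch 3 it had 474, 826 and 814 in WTr, WTbl and WTb. The library with the least yolk was the lowest for *rme-2* in each batch, but the library with the most yolk was the highest only in batch 1. The slope was 1.06 ± 0.21 (standard error, limma, Benjamini-Hochberg adjusted p = 0.00863).

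Eggshell genes followed the yolk order as well. *cpg-1*, which encodes a chondroitin proteoglycan of the eggshell, had 603, 1190 and 1278 normalized CPM in WT2, WT1 and WT3. It had 421, 414, 753, 985, 1294 and 1082 from WT_7 to WT_5, and 708, 1288 and 1305 in WTr, WTbl and WTb, with a slope of 1.07 ± 0.19 (limma, Benjamini-Hochberg adjusted p = 0.00794). Levels of *cpg-1* in WT_7 and WT_6 were close to each other and below those of every other WT library. *cbd-1*, for a chitin-binding protein of the eggshell, had a slope of 1.01 and 663 to 1951 normalized CPM in batch 2, and *chs-1*, the chitin synthase of the eggshell, had a slope of 0.92.

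Regulators of maternal mRNA moved with them. *puf-5*, which encodes an RNA-binding protein of the PUF family, had a slope of 1.07. *oma-2*, needed for oocyte maturation, had a slope of 1.00 with 85.1 and 83.7 normalized CPM in WT_7 and WT_6, against 246 in WT_4. *mex-5*, which sets the polarity of cytoplasmic proteins in the zygote, had 0.81, and *pie-1*, which keeps the germline precursor silent, had 0.83. The germ granule gene *meg-1* had a slope of 1.14. *meg-2* and *meg-3* (1.17 and 1.24) are not on the oocyte and eggshell list and were picked among the 10 steepest followers named below. The steepest follower of the oocyte and eggshell list was *cav-1*, a caveolin of oocytes, with a slope of 1.26 at a low mean of 5.04 normalized CPM.

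In every batch, most oocyte genes were lowest in the library with the least yolk: 35 of 35 in WT2, 20 of 35 in WT_7 and 33 of 35 in WTr. At the other end the batches differed. WT3 held the highest value for 34 of 35 genes, but WT_4 and not WT_5 did so for 31 of 35 in batch 2, and WTbl and not WTb for 26 of 35 in batch 3. The summed level of the list was 5407 to 13278 normalized CPM in batch 2, with 13278 in WT_4 and 11439 in WT_5.

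Genes of the mitotic and meiotic germ line followed the yolk order with smaller slopes. All 36 tested genes had a positive slope, 23 of them called, where 14.2% of all genes followed. The median was 0.38 (0.30, 0.72 and 0.37 in batches 1, 2 and 3, and 0.50 without WT2). Without WT2, limma called 0 of the 36 and DESeq2 called 23. The steepest were genes of the cell cycle and DNA replication. The B-type cyclin gene *cyb-3* had 214, 404 and 456 normalized CPM in WT2, WT1 and WT3 and a slope of 0.87, and the replicative helicase genes *mcm-2* to *mcm-7* had slopes of 0.60 to 0.76, all called. *pcn-1*, the sliding clamp of DNA polymerase, had 0.61.

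Germline regulators varied. *gld-1*, which encodes a translational repressor of the meiotic germ line, had 612, 935 and 916 normalized CPM in WT2, WT1 and WT3 and a slope of 0.59. *glp-1*, the Notch receptor of germline stem cells, had 0.61. Genes of the synaptonemal complex were less steep, with *syp-4* (0.35) called and *syp-1* (0.09), *syp-2* (0.29) and *syp-3* (0.34) not called. *fbf-1* and *fbf-2*, regulators of stem cell fate, had slopes of 0.20 and 0.08 and were not called either.

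Of 57 tested sperm genes, 1 followed and 1 opposed, where 14.2% of all genes followed and 9.02% opposed, and the median slope was 0.12. The median was -0.17 in batch 1, 0.60 in batch 2 and 0.10 in batch 3, and it turned negative when WT_7 or the whole of batch 2 was left out (-0.08 without batch 2). None of the 30 tested genes of the *msp* family, for major sperm protein, was called by limma, edgeR or DESeq2, and 0 were at an unadjusted p under 0.05 (limma), with slopes of -0.42 to 0.33. These genes are near-identical copies, so that reads could be assigned to the wrong member. WT_7 had the lowest value of batch 2 for 41 of the 57 sperm genes, and WT3 the lowest value of batch 1 for 53. The follower was *spe-39* (0.36), a vesicle trafficking gene that is also used outside sperm, and the opposer was *spe-4* (-0.42), a presenilin of spermatocytes. *fog-3*, which directs germ cells to become sperm, had 5.36, 3.18 and 2.14 normalized CPM in WT2, WT1 and WT3 and 17.1 in WT_7 against 1.81 in WT_4, with a slope of -1.04 that was not called (limma, Benjamini-Hochberg adjusted p = 0.0543).

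Genes that are switched on in the early embryo were at the edge of detection. Of 14 listed genes, 2 were in the filtered table, and the 14 together had 28 to 755 reads per WT library. *vet-2* had 1.99, 3.80 and 8.07 normalized CPM in WT2, WT1 and WT3, 0.682 to 5.84 in batch 2, and 9.57, 14 and 10.1 in WTr, WTbl and WTb. Its slope was 1.25 ± 0.36 (limma, Benjamini-Hochberg adjusted p = 0.0273), and values were at the bottom of their batch in WT2, WT_7 and WTr. On recovered reads, edgeR called 0 and DESeq2 both of the 2 genes.

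Opposite to the oocyte genes, genes of the molt were highest where yolk was lowest. Of 36 tested genes for molting enzymes and cuticle matrix, 24 opposed the yolk order, where 9.02% of all genes did, and 1 followed. The median slope was -1.21, with -1.14, -1.59 and -0.58 in batches 1, 2 and 3 and -1.08 without WT2. Without WT2, limma called 0 of them and DESeq2 called 12 as opposers, and in batch 2 alone DESeq2 called 11. The summed level was 2736 normalized CPM in WT2, 1160 in WT1 and 1205 in WT3, and it was 8134 in WT_7 and 2054 to 4655 in the rest of batch 2. In batch 3 it was 2098 in WTr, 1337 in WTbl and 2007.5 in WTb. The library with the least yolk was thus 2.27 times the one with the most yolk in batch 1, 2.96 times in batch 2 and 1.05 times in batch 3.

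The steepest of these was *lpr-3*, a lipocalin of the apical extracellular matrix, with 24.3, 2.23 and 1.25 normalized CPM in WT2, WT1 and WT3. It had 328, 67.7, 16.9, 20.6, 12.6 and 42.3 from WT_7 to WT_5, and 38.6, 5.28 and 13.2 in WTr, WTbl and WTb. Its slope was -2.62 ± 0.60 (limma, Benjamini-Hochberg adjusted p = 0.0117). The level in WT_5, with the most yolk of batch 2, was thus above those of WT_8, WT_9 and WT_4, and that of WTb was above that of WTbl.

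*mlt-11*, which encodes a protease inhibitor needed for molting, behaved alike, with 75.2, 8.47 and 3.55 normalized CPM in WT2, WT1 and WT3, 735 in WT_7 and 36.5 in WT_4. Its slope was -2.57. The zona pellucida domain proteins of the cuticle precursor, *noah-1* and *noah-2*, had slopes of -2.15 and -1.83. The hedgehog-related gene *qua-1* had -2.20, the patched-related gene *ptr-4* had -2.05 and *acn-1*, related to angiotensin-converting enzyme, had -1.63. Further molting genes were *mlt-8* (-1.69), *mlt-9* (-2.16) and *mlt-10* (-2.03), all called, and *mlt-7* (-0.32), which was not called. In batch 3 alone the slope of *mlt-10* was 0.12.

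The proteases that open the old cuticle were less uniform. *nas-36*, an astacin metalloprotease, had a slope of -1.01 and was called. *nas-37*, its partner, had 30.8, 28.6 and 33.995 normalized CPM in WT2, WT1 and WT3 and 150 in WT_7, with a slope of -0.57 that was not called. *bli-3*, the dual oxidase that cross-links cuticle collagen, had -0.27 and *bli-4*, a processing protease, had -0.05, neither called. The only follower of the list, *dab-1*, which encodes an adaptor of endocytosis, had 177, 222 and 231 normalized CPM in WT2, WT1 and WT3 and a slope of 0.42.

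The collagens of the annular furrows had the steepest list median. *dpy-2*, *dpy-3*, *dpy-7*, *dpy-8*, *dpy-9* and *dpy-10*, which are made early in each cycle of cuticle formation, all opposed the yolk order, where 9.02% of all genes did. Their slopes ran from -1.74 to -2.53, with a median of -2.24. The median was -1.99, -2.67 and -2.23 in the 3 batches, and -2.40 without WT2, where limma called 0 of the 6 and DESeq2 called 3. Over all genes, DESeq2 called 603 opposers without WT2, of 11954 with an adjusted p. In batch 2 alone limma and DESeq2 both called 0 of the 6. The sum of the 6 furrow collagens was 66.2 normalized CPM in WT2, 10.8 in WT1 and 8.16 in WT3. It was 671 in WT_7, 156 in WT_6, 47.4 in WT_8, 53.5 in WT_9, 34.7 in WT_4 and 108 in WT_5. In batch 3 it was 157 in WTr, 21.7 in WTbl and 48.0 in WTb. The library with the least yolk held the highest value of all 6 genes in each batch, and WT_4 and WTbl, not the libraries with the most yolk, held the lowest value of all 6 in batches 2 and 3.

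Collagens of the adult cuticle were split. The strut collagens *bli-1* and *bli-2* and the collagen *rol-6* opposed the yolk order, with slopes of -2.45, -2.65 and -2.05. *bli-2*, the steepest opposer among the named genes, had 82.8, 7.34 and 2.57 normalized CPM in WT2, WT1 and WT3. It had 462, 225, 73.5, 61.998, 45.8 and 90.9 from WT_7 to WT_5, and 147, 31.7 and 88.6 in WTr, WTbl and WTb. *col-19*, which is made after the last molt, followed the yolk order, with 1301, 2174 and 1964 normalized CPM in WT2, WT1 and WT3, 880 in WT_7 and 1464 in WT_5, and a slope of 0.43 ± 0.11 (limma, Benjamini-Hochberg adjusted p = 0.018). *col-7* (-0.35) and *col-62* (-0.37) were not called. Among all genes, 9.02% opposed and 14.2% followed.

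**Figure D3:**
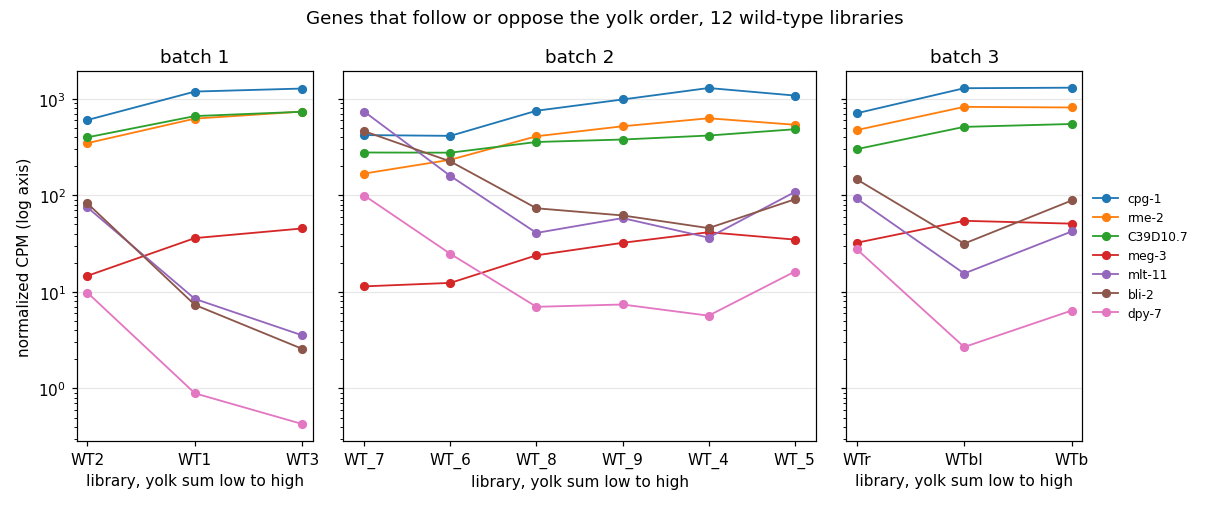
Normalized CPM (log axis) of 7 genes in the 12 wild-type libraries, 1 panel per batch, with libraries from low to high yolk sum. *cpg-1*, *rme-2*, C39D10.7 and *meg-3* are lowest or nearly so at the left of each panel, and *mlt-11*, *bli-2* and *dpy-7* are highest there, with *bli-2* at 82.8 in WT2 against 2.57 in WT3.

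Among 22 tested regulators of molting and stage, limma called 3 as opposers and 2 as followers, where 9.02% of all genes opposed and 14.2% followed, and the median slope was -0.36. On recovered reads edgeR called 6 opposers and DESeq2 8, with 2 followers each. *lin-42*, a homolog of the Period clock gene whose mRNA oscillates with the molts, had 109, 27.7 and 15.99 normalized CPM in WT2, WT1 and WT3, 493.01 in WT_7 and 76.2 in WT_4, and 45.05, 22.2 and 48.6 in WTr, WTbl and WTb. Its slope was -1.53. The zinc finger gene *bed-3* had -1.58 and the Grainyhead gene *grh-1* had -0.94. The followers were *lin-41* (1.00), which acts in stage timing and in oocyte growth and is also counted among the oocyte genes, and *nhr-23* (0.32), a nuclear hormone receptor of the molt that is also used in spermatogenesis. *nhr-23* had 54.6, 61.7 and 68.0 normalized CPM in WT2, WT1 and WT3, so its range was much smaller than that of the collagens. *blmp-1* (-0.69) and *lin-29* (-0.60), which act at the larval to adult switch, were not called by limma, whereas edgeR called *blmp-1* and DESeq2 called both.

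Of 11 tested regulators and receptors of yolk, limma called 2 as followers, where 14.2% of all genes followed, and 0 as opposers, with 5 at an unadjusted p under 0.05 and a median slope of -0.21. On recovered reads edgeR called 2 followers and 1 opposer, and DESeq2 2 followers and 3 opposers. The followers were *rme-2* and *rict-1* (0.56), a subunit of TOR complex 2. The factors that activate the yolk genes in the intestine were not called by limma. *unc-62* had 47.7, 50.4 and 41.5 normalized CPM in WT2, WT1 and WT3 and a slope of -0.09, and *ceh-60* had 17.2, 11.9 and 12.6 and a slope of -0.30. *mab-3*, which represses yolk genes in males, had a slope of -0.72 at a mean of 2.44 normalized CPM and was not called.

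**Figure D4:**
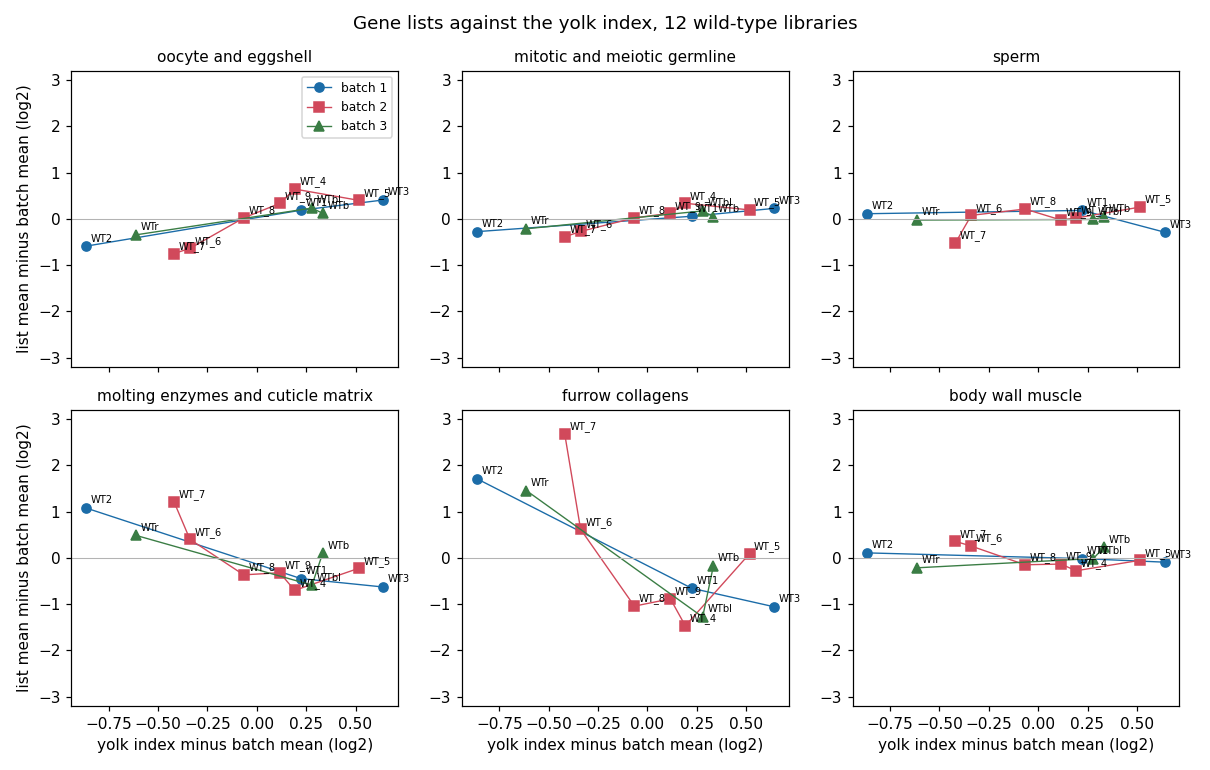
Mean log2 level of 6 gene lists in each wild-type library minus the mean of its batch, plotted against the yolk index minus the batch mean, with batches as colours and symbols. Oocyte and germline lists go up with the index and the molting lists go down, WT_7 is the highest point for furrow collagens, and WT_5 and WTb lie above the libraries next below them in yolk for both molting lists.

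Markers of somatic tissues were examined next. Of 16 tested intestinal genes, 1 opposed, where 9.02% of all genes did, and the rest were not called by limma. In this list 2 were at an unadjusted p under 0.05 and 2 were called by edgeR, and the median slope was -0.22 with 14 negative. The opposer was the GATA factor *elt-7* (-0.50). Of 13 body wall muscle genes, 1 opposed, the troponin gene *tni-1* (-0.50), where 9.02% of all genes did. The muscle median was -0.15, with medians of -0.10, -0.52 and 0.20 in the 3 batches. Of 13 neuronal genes 4 opposed, where 9.02% of all genes did, *ric-4* (-0.32), *sbt-1* (-0.32), *snt-1* (-0.34) and *unc-13* (-0.41), and the median was -0.23. In batch 2, WT_7 held the highest value of 12 of 13 muscle genes, 11 of 13 neuronal genes and 11 of 16 intestinal genes. Yolk itself comes from the intestine, and the *elt-2* gene, for the main intestinal GATA factor, had a slope of -0.21 that was not called. The part of these tissues in the slopes of the molting and oocyte genes was not tested.

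Of 15 genes of the vulva, uterus and gonadal sheath, 3 followed and 1 opposed, where 14.2% of all genes followed and 9.02% opposed. The followers were innexins, *inx-8* (0.38) of the sheath and *inx-14* (0.59) and *inx-22* (0.66), which are the innexins of the germ line. Limma called 1 follower of this list with WT3 or WTbl left out and 0 without WT2, where DESeq2 called 3. *zmp-1*, a matrix metalloprotease, opposed (-0.64). Of 13 tested antimicrobial peptide genes of the epidermis, 4 opposed, where 9.02% of all genes did, and the median was -0.35. The opposers were *cnc-3* (-1.22), *nlp-30* (-1.09), *nlp-33* (-0.77) and *nlp-34* (-0.77). Limma called 0 opposers of this list without WT2, 2 without WTbl, 5 without WT3 and 1 without batch 2. DESeq2 called 4 without WT2.

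Stress response and metabolic genes of the pathways the study examined, and enzymes of fatty acid synthesis, were not called in the fits of all 12 WT libraries. Limma, edgeR and DESeq2 each called 0 of the 31 pathway genes, with 3 at an unadjusted p under 0.05 (limma) and a median slope of 0.01. Likewise each called 0 of the 17 fatty acid enzymes, with 0 at an unadjusted p under 0.05 and a median slope of 0.07. Both medians changed sign with library size as the only scaling. *hsp-6*, the mitochondrial chaperone, had 627, 766 and 787 normalized CPM in WT2, WT1 and WT3, 649 to 978 in batch 2, and a slope of 0.14. *atfs-1* had a slope of 0.15 and *hif-1* a slope of -0.05.

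By a rule for naming genes, the 10 steepest followers and 10 steepest opposers were taken from the called genes whose mean reached 10 normalized CPM and whose sign was the same in each batch alone. A total of 2370 called genes had that mean, and 2273 of them had the same sign in all 3 batches, 1739 followers and 534 opposers. The followers were *col-95* (1.37), F14D7.2 (1.27), *meg-3* (1.24), R04D3.3 (1.24), C17E7.4 (1.205), C04B4.2 (1.19), F26G5.1 (1.18), *meg-2* (1.17), R04D3.2 (1.16) and R09A8.2 (1.15). The opposers were *bli-2* (-2.65), *lpr-3* (-2.62), *dao-2* (-2.60), *mlt-11* (-2.57), *lpr-4* (-2.55), *dpy-7* (-2.53), Y102A11A.5 (-2.52), *lon-3* (-2.48), *bli-1* (-2.45) and T26C5.2 (-2.40). All of these opposers were thus steeper than the steepest follower, and 4 of them, *bli-1*, *bli-2*, *dpy-7* and *lon-3*, encode cuticle collagens.

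*col-95*, the steepest follower, is a collagen gene on chromosome III of WBcel235 from 11703994 to 11705091. It had 14.1, 33.05 and 63.2 normalized CPM in WT2, WT1 and WT3, 10.96, 13.2, 22.2, 55.1, 29.7 and 38.1 from WT_7 to WT_5, and 19.3, 29.7 and 28.9 in WTr, WTbl and WTb. In batch 2 it was highest in WT_9, not in WT_4 or WT_5. Its slope was 1.37 ± 0.26 (limma, Benjamini-Hochberg adjusted p = 0.00837).

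Some named genes lie beside each other. R04D3.2 and R04D3.3 are neighbours on chromosome X, from 13285121 to 13286633 and from 13288917 to 13290631. *lpr-3* and *lpr-4*, a pair of lipocalin genes, lie on chromosome X from 11057401 to 11059793 and from 11065126 to 11066811. Of the 10 steepest followers 6 lie on chromosome X, and of the 10 steepest opposers 4 do. Among all 1860 tested genes on X, 6.99% followed and 14.4% opposed, where 14.2% of all genes followed and 9.02% opposed.

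Slope and fit are different measures, so the genes whose level was most alike to the index were also named, by the correlation of within-batch deviations over the 12 libraries (Pearson's r, a description). The 5 most alike were C39D10.7 (0.97), *perm-4* (0.96), *perm-2* (0.96), *cyk-7* (0.95) and *rnr-1* (0.95). *perm-2* and *perm-4* encode proteins of the eggshell permeability barrier and lie beside each other on chromosome IV, from 1126790 to 1128865 and from 1121494 to 1125107. *rnr-1* encodes the large subunit of ribonucleotide reductase, which makes DNA precursors, and *cyk-7* is named for cytokinesis.

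C39D10.7 had 399, 663 and 735 normalized CPM in WT2, WT1 and WT3, 278, 277, 357, 379, 417 and 484 from WT_7 to WT_5, and 301, 512 and 549 in WTr, WTbl and WTb. Its values stood in the yolk order in all 3 batches except for WT_7 and WT_6, which differed by about 1. The slope was 0.75 ± 0.08 (limma, Benjamini-Hochberg adjusted p = 0.00311). *perm-4*, with 241, 251, 327, 384, 435 and 449 normalized CPM from WT_7 to WT_5, stood in the yolk order in all of batch 2.

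The 5 most opposed were Y57G11A.4 (-0.97), *ugt-6* (-0.94), Y37D8A.16 (-0.93), *inx-15* (-0.93) and *col-89* (-0.93). Their slopes ran from -0.39 to -0.96. *inx-15*, an innexin, had 56.8, 45.6 and 34.4 normalized CPM in WT2, WT1 and WT3 and 59.1, 42.99 and 46.1 in WTr, WTbl and WTb. *ugt-6*, a member of the UDP-glucuronosyltransferase family, had 26.3, 11.7 and 6.94 normalized CPM in WT2, WT1 and WT3.

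Gene families were taken by their symbols. Of 69 families with at least 15 tested genes, 26 had a positive and 43 a negative median slope. Over all genes tested, 14.2% followed and 9.02% opposed. The lowest medians were those of the collagens (*col*, 116 genes, 69 opposing and 22 following, median -0.65), the cuticlin-like genes (*cutl*, 22 genes, 12 opposing, median -0.62), the patched-related genes (*ptr*, 22 genes, 13 opposing and 1 following, median -0.59), the astacin proteases (*nas*, 26 genes, 14 opposing, median -0.58) and the *dpy* genes (24 genes, 11 opposing and 3 following, median -0.55). All 22 *cutl* genes had a negative slope. The medians of these 5 families stayed negative with library size as the only scaling, without WT2 and in batch 2 alone. The 22 of 116 *col* genes that followed, *col-95* and *col-19* among them, were a share not far from that over all genes.

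The highest medians were those of the *cdc* cell division genes (15 genes, 8 following, 0.39), the nuclear pore genes (*npp*, 24 genes, 22 following, 0.38), the TFIID subunits (*taf*, 17 genes, 11 following, 0.35) and the *set* domain genes (27 genes, 10 following and 1 opposing, 0.34). Over all genes tested, 14.2% followed and 9.02% opposed. Slopes of the *npp* genes ran from -0.08 to 0.47, narrower than those of the oocyte list. All 20 mediator genes (*mdt*) had a positive slope, and 6 of them were called. None of these medians changed sign with library size as the only scaling, without WT2 or in batch 2 alone.

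Large families of housekeeping genes and of neuropeptides had no call or few. Limma, edgeR and DESeq2 each called 0 of the 47 *rpl* and 0 of the 31 *rps* genes for cytosolic ribosomal proteins, with 0 at an unadjusted p under 0.05 (limma) and medians of -0.0073 and -0.0019. They also called 0 of the 39 *mrpl* and 0 of the 27 *mrps* genes for mitochondrial ribosomal proteins, with 1 and 2 at an unadjusted p under 0.05. The medians of 0.045 and 0.048 turned negative with library size as the only scaling, without WT2 and in batch 2 alone. All 30 *flp* neuropeptide genes had a negative slope, from -0.04 to -0.38. Limma called 0 of them, with 8 at an unadjusted p under 0.05, and edgeR and DESeq2 called 3 each. Among all 13831 genes, limma called 3218, edgeR 2956 and DESeq2 3945, and 5295 were at an unadjusted p under 0.05 (limma).

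The X chromosome held fewer followers and more opposers than the autosomes. Of 1860 tested genes on X, 6.99% followed and 14.4% opposed. On chromosome I, 18.8% of 2304 genes followed and 5.90% opposed, and on chromosome III, 17.7% of 2189 followed and 5.71% opposed. Chromosomes II, IV and V lay between, with 16.09%, 13.98% and 11.2% following and 9.89%, 8.74% and 10.2% opposing. Genes on 1 chromosome are not independent and no test was made.

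The WT slopes were then set beside those within the other 31 libraries, fitted with an intercept for each group and batch. There 2939 genes (21.2%) were called, 1548 of them followers (11.2%) and 1391 opposers (10.1%). A total of 1387 genes were called in the same direction in both fits, 887 as followers and 500 as opposers, which is 43.1% of the genes called in WT and 47.2% of those called in the other libraries, and 0 genes were called in opposite directions. Of the WT followers, 94.5% had the same sign in the other libraries, as had 96.2% of the WT opposers and 73.7% of all genes. Without *nuo-6* replicate 2, whose yolk index of 13.08 was far below the others of its group, 1413 genes were called in the other libraries, and without *atfs-1(et15)* 1685. With a further term for each replicate number or letter shared within a batch (a replicate block), added after seeing the data, 168 were called. The libraries atfs1DEL1, atfs1DEL2 and atfs1DEL3 of batch 1 each resembled 1 library of batch 3, atfs1b, atfs1bl and atfs1r in that order, at a correlation of 0.998 across genes of log2(normalized CPM + 0.5), where the highest of the other 900 pairs of libraries was 0.997. On other measures these pairs overlapped with the remaining ones. Their deviations from the group mean correlated at 0.58 to 0.80, where the highest elsewhere was 0.78. The chi-square of their reads per degree of freedom was 9.1 to 60.6, where the lowest elsewhere was 21.9. These 6 libraries may still be 3 samples sequenced more than once, although their reads differed by more than counting error. With each pair averaged to 1 library, a fit added after seeing the data called 2660 genes in the other libraries, and the difference of slopes called 0. The highest correlation between a pair of WT libraries was 0.993.

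Medians of the furrow, molting and oocyte lists were farther from 0 in WT than in the other libraries fitted together, but no gene passed the test of a difference. The median slope of the furrow collagens was -2.24 in WT and -0.45 in the other libraries, that of the molting enzymes and cuticle matrix genes -1.21 and -0.38, and that of the oocyte genes 0.85 and 0.44. For *bli-2* the slope was -2.65 in WT and -0.48 in the other libraries. A test of the difference of slopes over all 43 libraries called 0 genes (0.0%), with 2731 at an unadjusted p under 0.05 and a smallest adjusted p of 0.211 (limma, Benjamini-Hochberg adjustment, the only tool run for it). Between the groups the median slope of the furrow collagens ran from -3.07 in *hif-1* to -0.20 in atfs1DEL, so that the other libraries did not share 1 value. The median of the molting enzymes and cuticle matrix genes was -2.01 in *hif-1*. It was positive in atfs1DEL (0.04, 21 of 36 genes positive) and atfs1 (0.10, 24 of 36). The oocyte median was 1.26 in *hif-1* and 0.21 in atfs1DEL. Of the 30 *msp* genes, 0 were called in WT and 25 followed in the other libraries, at medians of 0.17 and 0.30, and none of them passed the test of a difference. Calls in the other libraries also rested on *nuo-6* replicate 2, without which the molting list had 4 opposers in place of 22, the furrow collagens 0 in place of 4, the sperm list 17 followers in place of 29 and the oocyte list 32 followers in place of 34.

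**Figure D5:**
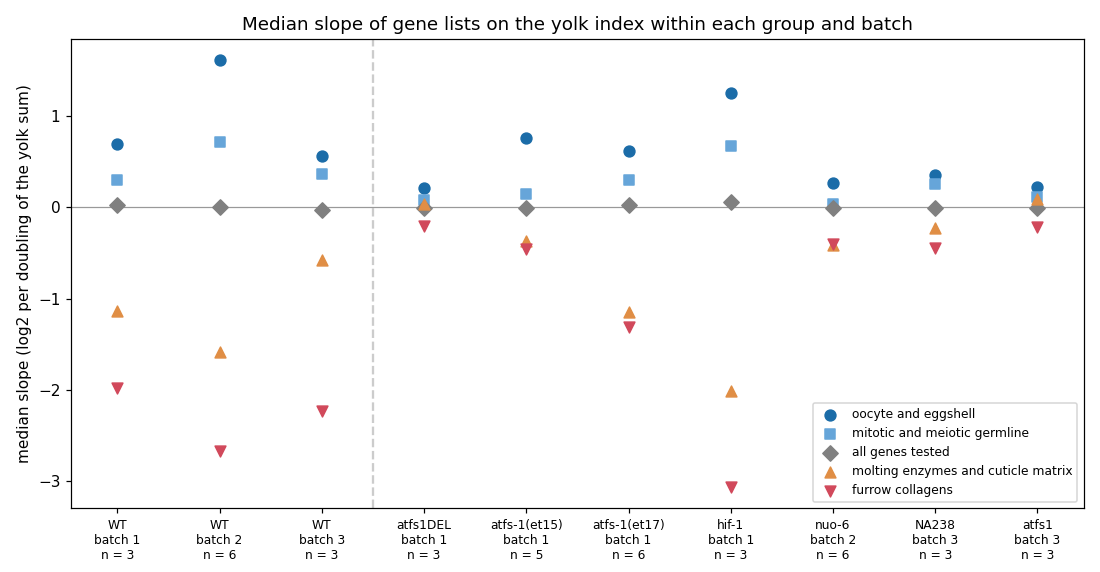
Median slope on the yolk index (log2 change for each log2 unit of the yolk sum) of 4 gene lists and of all genes tested, within each group and batch of at least 3 libraries, with wild-type batches to the left of the dashed line. In the 3 wild-type batches furrow collagens lie between -1.99 and -2.67 and oocyte genes between 0.57 and 1.61, and all genes tested lie near 0 everywhere.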

How the data were processed

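RNA from whole worms was sequenced as 75-base single reads from a stranded mRNA library. Per the labels and the study's methods, the authors aligned reads with STAR 2.5.2b to WBcel235 with Ensembl 89 and counted them per gene. The strand setting of the counting is not given in the sources used here. The authors deposited a raw CPM table of 46739 genes and a table of 13837 genes that passed their filter, in normalized CPM (edgeR 3.20.1). The deposited normalized CPM were the deposited CPM times 1 constant per library, that is a scaled signal, and reads recovered from the CPM were whole for 100% of values within 0.01. For the WT libraries between 23150371 and 44827316 reads were recovered, with a median of 30086958.5.

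The yolk index was the log2 of the summed normalized CPM of the 6 yolk genes. Slopes on it were fitted to log2(normalized CPM + 0.5) with limma 3.58.1 in R 4.3.3 (trended empirical Bayes, batch as an additive term), which understates changes of low genes. Adjusted p-values are Benjamini-Hochberg values over 13831 genes, and genes under 0.05 were called. The other 31 libraries were fitted with an intercept for each group and batch, and the difference of slopes over all 43 libraries. On the whole reads, edgeR 4.0.16 and DESeq2 1.42.0 called 2956 and 3945 genes in WT. Alternatives were other pseudocounts, filters, scalings, indices and batch terms, and leaving out each library. Only the limma slope fit in WT was run on simulated data with known slopes, in which genes varied independently. In the WT libraries the first principal component took 55.6% of the within-batch variance, so that run cannot decide how far the calls hold. The edgeR and DESeq2 fits, the fit of the other libraries and the difference of slopes were not tested in this way. Named genes were the 10 steepest called genes each way with a mean of at least 10 normalized CPM and the same sign in each batch, the 5 most alike and 5 most opposed by within-batch correlation, all genes of the lists (steepest, defining and not called as examples) and families of at least 15 genes. The members and lists were chosen with earlier results of these data known. Coordinates are from Ensembl 115 (WBcel235), in which 13760 genes matched. The near-identical copies among *msp*, *vit* and collagen genes have uncertain counts, as reads could be split between them. Genes listed but left out by the filter were not tested.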

Additional observations from a re-analysis of the deposited data

Results flagged for a closer look

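Each group of 4 to 10 libraries was examined for a lowest or highest library that stands far from its neighbours, for the yolk index and the list sums, in 21 groups of values. In 2 of them a library stood apart, and chance gives about 1 in 20. In batch 2, the summed regulators of molting and stage were at 1360.7 normalized CPM in WT_7, while the other 5 WT libraries of the batch lay between 656 and 793. WT_7 also had the lowest yolk sum of its batch and the highest furrow collagen sum. Without WT_7, 3093 genes were called in place of 3218, and the median slope of the 22 regulators kept its sign. Among the 6 *nuo-6* libraries, replicate 2 had a yolk index of 13.075, where the group's median was 15.86. This library enters the fit of the other libraries and the difference of slopes, and the latter was not refitted without it.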

How the results depend on the processing

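Of 3218 genes called in WT, leaving out 1 library at a time gave 1 (without WT2) to 3619 (without WTb). Counts also moved to 646 at an adjusted p under 0.01, 1344 without a batch term, 1803 without batch 2, 0 in batch 2 alone and 5358 with the log2 of reads counted as a covariate. On recovered reads, fits added after seeing the data gave 0 (edgeR) and 1927 (DESeq2) without WT2, and 0 (edgeR) and 1386 (DESeq2) in batch 2 alone. The causes of these changes were not tested. With any WT library other than WT2 left out, limma called 1695 (without WT3) to 3619 (without WTb) genes. The other alternatives gave between 2213 and 3945. Followers were 61.2% of the called genes, but 32.9% with library size as the only scaling, 46.5% with edgeR and 41.8% with yolk reads left out of the total, and without a batch term 511 of 1344 were followers. In the other 31 libraries, 2939 called genes became 1138 at an adjusted p under 0.01, 1685 without *atfs-1(et15)* and 1413 without *nuo-6* replicate 2, the last added after seeing the data. The difference of slopes called 0 genes under all its alternatives. Over 31 alternatives the median slope stayed between 0.66 and 1.64 for oocyte genes, 0.30 and 0.72 for germline genes, -1.71 and -0.95 for molting enzymes and cuticle matrix and -2.86 and -1.81 for furrow collagens. It changed sign in 2 alternatives for sperm genes, 7 for fatty acid enzymes and 11 for genes of the study's pathways. No called gene of the named set reversed under any alternative. The 30 genes named by rule kept their sign in all 32 settings. These genes were called or picked in the same libraries, so their signs were largely fixed in advance. Of all genes tested, 88.3% kept their sign without WT2 and 80.4% in batch 2 alone. A replicate block could not be fitted within WT, where each number or letter stands for 1 library. WT, NA238 and atfs1 share the letters b, bl and r in batch 3, and in each of these groups the yolk index was lowest in r and highest in b. Across genes, the deviations of libraries with the same letter correlated at 0.45 to 0.69 between WT and atfs1, at -0.42 to 0.75 between WT and NA238 and at -0.34 to 0.74 between NA238 and atfs1, and the labels do not say that a letter marks a shared day. With a replicate block for these letters, added after seeing the data, 2798 genes were called in the other libraries (2714 with the atfs1DEL and atfs1 pairs averaged), and with a replicate block for every shared number or letter 168. The difference of slopes called 0 genes in each, with 2671 at an unadjusted p under 0.05 for the letters and 3417 for every shared number or letter. Genes with few reads, such as those of the early embryo, limit what depth can show.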

Other observations

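With the yolk genes left out, the first principal component of the within-batch log2 values of the 12 WT libraries took 55.6% of the variance and the second 13.5%. Along the first, the libraries of batch 1 stood at -0.46 (WT2), 0.14 (WT1) and 0.32 (WT3), and those of batch 3 at -0.18 (WTr), 0.23 (WTbl) and -0.049 (WTb). In batch 2 they stood at -0.54 (WT_7), -0.28 (WT_6), 0.085 (WT_8), 0.20 (WT_9), 0.38 (WT_4) and 0.14 (WT_5). WT_4 and WTbl, which have the second most yolk of their batches, were thus the highest of their batches, as they were for most oocyte genes.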
